A study of Mus musculus with 6 samples.

Results

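The genes described are 10 members of the BCL2 family outside the direct targets of p53, taken by symbol from the 25006 genes listed in each library: the antiapoptotic genes Bcl2, Bcl2l1 and Mcl1, the effectors Bak1 and Bok, the BH3-only genes Bcl2l11, Bid, Bad and Bmf, and the mitophagy receptor gene Bnip3. All 10 passed the filter on low counts. RNA sequencing measured them at embryonic day 17.5 in the heart ventricles of NMRI-background mouse embryos, in 3 libraries labelled null, with the genotype VecadcreERT2; Prox1f/f, and 3 control libraries with the genotype label WT. Dams of both groups were injected with tamoxifen (5 mg for each 40 g they weighed) at E13.5 and again at E14.5. The breeding described for both groups joined Prox1 f/f females with VecadCreERT2; Prox1f/f males, a cross in which embryos without Cre also carry floxed Prox1, whereas the control label reads WT. Cre is driven by the VE-cadherin promoter, which is active in endothelial cells and not in cardiomyocytes, and it is named for the null-labelled libraries only, so Prox1 loss and Cre activity cannot be told apart.

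Proteins of the BCL2 family decide at the outer mitochondrial membrane whether a cell enters intrinsic apoptosis. The effectors form pores that release cytochrome c, the antiapoptotic proteins hold effectors and BH3-only proteins in inactive complexes, and the BH3-only proteins respond to stress or loss of growth factors by activating effectors or by occupying antiapoptotic partners. Mcl1 is required in mouse cardiomyocytes, where its deletion leads to loss of mitochondrial function and heart failure, and much of the family is regulated by protein turnover, phosphorylation and cleavage, which RNA counts do not measure.

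Library totals ran from 36216206 to 41408973 counts in null-labelled libraries and from 35195544 to 44330594 in controls, and the members had between 89 and 8445 counts in a library. The targeted gene was not lower in null-labelled libraries: Prox1 had 164, 160 and 168 CPM there and 149, 143 and 149 CPM in controls (log2 fold change 0.15 ± 0.034, SE; adjusted p = 0.0331 in edgeR's quasi-likelihood test). That difference in Prox1 was called in 1 of 6 fits with a single library left out (adjusted p from 0.039 to 0.13), was not called with a term for sex, and had an adjusted p of 0.557 with null 1 and null 3 both left out. Cardiomyocytes also express Prox1 and the counts cover the whole gene, so this does not check the deletion, and the libraries are called null-labelled throughout. Null 1 and null 3 held Y-linked transcripts at male levels together with Xist, the transcript of the inactive X chromosome, at 44.7 and 139 CPM, against 1390 CPM in null 2 and 0.636 and 0.806 CPM in the male control libraries. Results are therefore also given without these 2 libraries. That fit leaves 1 null-labelled library, its spread taken from the controls. A call lost in it may come from the small number of libraries alone. The labels do not say whether libraries came from separate embryos, so p-values measure the spread between these libraries, which may be technical in part. CPM is the count of a gene scaled to the size of its library after the TMM correction for composition, and fold changes are null-labelled over control. All 10 cardiomyocyte markers were high, summing to 77500 to 78900 CPM in null-labelled libraries and 74900 to 80900 CPM in controls. In edgeR 1 of the 10 was called, the cardiac actin gene Actc1, which was lower (log2 fold change −0.18 ± 0.043, adjusted p = 0.0401). DESeq2 called 3, with Ryr2 and Pln higher, and limma-voom 0. The Actc1 call held in 1 of 6 fits with a single library left out, and its adjusted p was 0.231 without null 1 and null 3. The median log2 fold change of the 10 was 0.04, and the part of cardiomyocyte content in the members' values was not tested.

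Of the 10 members, 2 fell, 1 rose and 7 did not pass an adjusted p of 0.05 in edgeR's quasi-likelihood test. Bok fell 1.4-fold, Bcl2 fell 1.17-fold, and Bcl2l11, which encodes BIM, was 1.19-fold higher. Over all 14815 genes tested, 801 were called (5.41%), 360 of them higher (2.43%) and 441 lower (2.98%). The median log2 fold change of the members was 0.02, beside −0.004 over all genes tested, and the median size of the change was 0.149 beside 0.0895. The groups did not overlap for 5 of the 10 members, beside 26.6% of all genes tested.

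**Figure D1:**
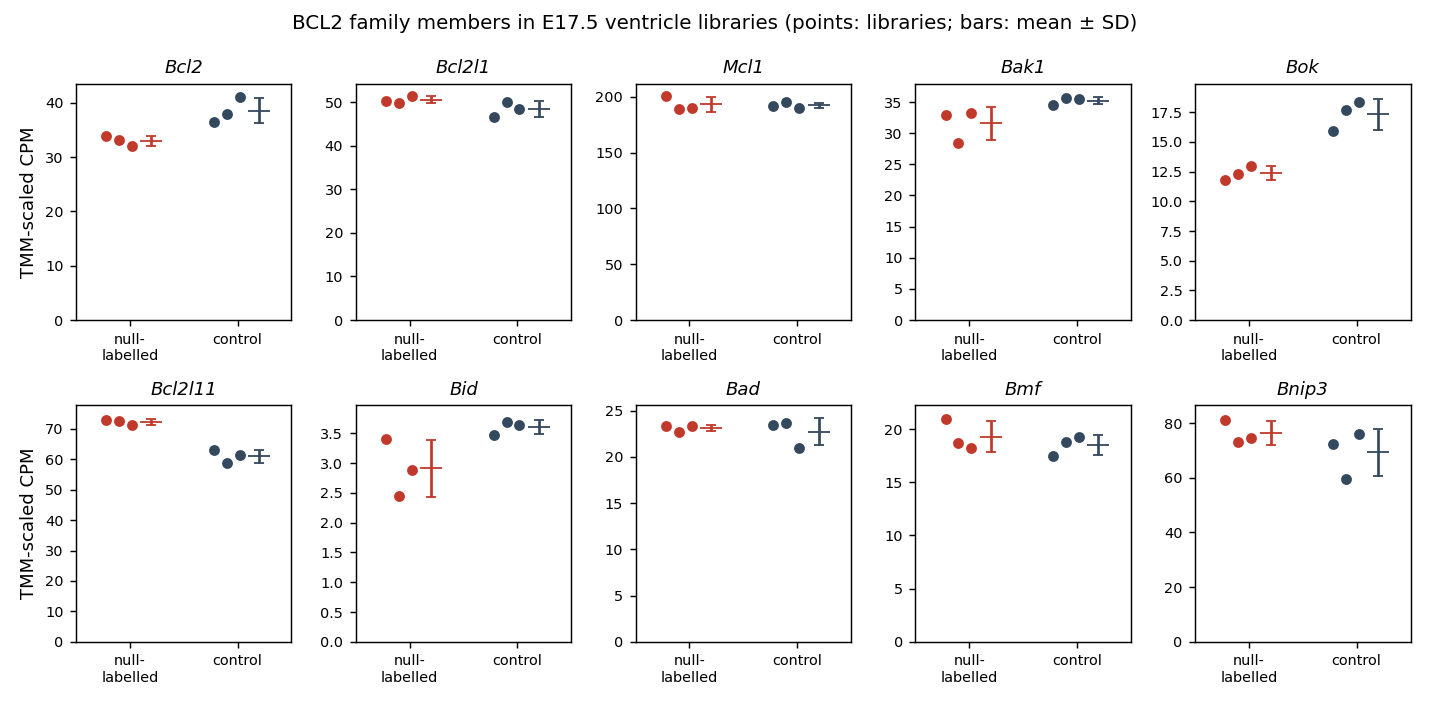
TMM-scaled CPM of each member in every library (points), null-labelled on the left and control on the right of each panel, with mean ± SD of 3 libraries beside the points; each vertical axis starts at 0 and has its own range. The 3 null-labelled libraries lie below the 3 controls for Bcl2, Bak1, Bok and Bid and above them for Bcl2l11.

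The 250 bases upstream of the start of the 3 called genes are shown because they are the regulatory sequence next to the genes that moved; they are RefSeq promoters of build GRCm38.p6, printed 5′ to 3′ on the strand the table gives, at chr1:93685325-93685574 on the plus strand for Bok, chr1:106714291-106714540 on the minus strand for Bcl2 and chr2:128125788-128126037 on the plus strand for Bcl2l11. Capitals mark matches, on either strand, to the GC box GGGCGG, the core of cAMP response elements TGACG, the ETS core CCGGAAG and the FOXO core GTAAACA; the letters ACGTG, shared by sites of hypoxia-inducible factor and MYC, were searched as well. Bases just after the start matched a GENCODE transcript of the same gene in the printed direction for Bcl2 and Bcl2l11. Those of Bok matched none in either direction, the RefSeq start lying 85 bases upstream of the GENCODE start, so the direction for Bok rests on the table's strand alone.
Bok: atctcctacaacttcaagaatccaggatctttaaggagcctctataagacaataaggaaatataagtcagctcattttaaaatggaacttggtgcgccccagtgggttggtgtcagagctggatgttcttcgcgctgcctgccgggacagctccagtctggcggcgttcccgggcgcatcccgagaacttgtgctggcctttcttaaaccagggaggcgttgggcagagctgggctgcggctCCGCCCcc
Bcl2: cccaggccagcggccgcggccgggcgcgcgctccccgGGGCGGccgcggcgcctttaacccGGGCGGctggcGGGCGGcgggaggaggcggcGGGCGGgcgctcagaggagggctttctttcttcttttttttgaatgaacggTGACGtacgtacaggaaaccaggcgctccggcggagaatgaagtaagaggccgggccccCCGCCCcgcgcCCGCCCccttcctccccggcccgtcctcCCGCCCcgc
Bcl2l11: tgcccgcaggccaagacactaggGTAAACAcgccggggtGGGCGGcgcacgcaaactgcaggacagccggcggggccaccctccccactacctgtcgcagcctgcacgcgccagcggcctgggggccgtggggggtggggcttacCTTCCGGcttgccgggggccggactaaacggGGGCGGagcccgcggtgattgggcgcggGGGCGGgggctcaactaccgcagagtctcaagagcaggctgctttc
The Bcl2l11 window held 1 FOXO core, at position −227 from the start, 1 ETS core and 3 GC boxes. A FOXO core was present in 3.17% of the 32851 promoters searched in the same way, an ETS core in 6.91% and a GC box in 32.7%. The motifs were chosen with earlier results of these data known, and binding to them was not tested. The Bcl2 window held 7 GC boxes and 1 TGACG, a sequence found in 17.8% of promoters, and the Bok window held 1 GC box. ACGTG was in none of the 3 windows and was in the Bnip3 window at position −107, with 16.6% of all promoters holding it. Windows of other uncalled members held matches too. GC boxes were found for Mcl1 (1), Bid (3), Bad (3) and Bnip3 (6), an ETS core for Mcl1 and 2 TGACG for Bmf. Those of Bcl2l1 and Bak1 held no match, and no uncalled member had a FOXO core. The windows of Bcl2 and Bcl2l11 had a GC content of 74.8% and 72%, that of Bok 55.2%, and the median promoter 52.4%.

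Among the effectors, Bok encodes a protein that can form pores without the usual activation and is kept low in cells by degradation. Its gene lies on chromosome 1 (93685660 to 93695764, plus strand, GRCm38). Bok had 11.8, 12.3 and 13 CPM in null-labelled libraries, against 15.9, 17.7 and 18.4 CPM in controls. Every null-labelled library lay below every control, with means of 12.4 ± 0.62 and 17.3 ± 1.3 CPM (SD, n = 3 each). The log2 fold change was −0.49 ± 0.078 (SE, 95% interval −0.66 to −0.31), with adjusted p = 0.00991 in edgeR's quasi-likelihood test. The call held without each single library (adjusted p from 0.00702 to 0.0443). Without null 1 and null 3 together, which leaves 1 null-labelled library, the call was lost and the log2 fold change was −0.49.

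Bak1, the other effector, which waits at the outer mitochondrial membrane for activation, had 32.9, 28.5 and 33.3 CPM in null-labelled libraries, against 34.6, 35.6 and 35.5 CPM in controls. The groups did not overlap, with null 2 the lowest, but the gene did not pass (log2 fold change −0.16 ± 0.062, 95% interval −0.30 to −0.02, adjusted p = 0.181). Of the merged exons of Bak1, 18.2% are shared with exons of Ggnbp1 on the opposite strand, which had 981 to 1507 counts per library. The strand setting of the counting is not given in the sources used here, so reads of such overlapping genes may not be told apart.

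Among the antiapoptotic genes, Bcl2, the founder of the family, first found at a chromosomal breakpoint in human lymphoma, lies on chromosome 1 (106538178 to 106714274, minus strand, GRCm38). Of its merged exons, 6.1% are shared with exons of D630008O14Rik on the opposite strand, a gene not among those counted. Bcl2 had 33.8, 33.1 and 32 CPM in null-labelled libraries, against 36.5, 38 and 41 CPM in controls. The 3 null-labelled libraries were lower than the 3 controls, with means of 33 ± 0.915 and 38.5 ± 2.28 CPM (SD, n = 3 each). The log2 fold change was −0.22 ± 0.053 (SE, 95% interval −0.34 to −0.10) with adjusted p = 0.0436 in edgeR's quasi-likelihood test. This call sat close to the threshold. It was lost without null 1, null 2, null 3, control 2 or control 3 (adjusted p of 0.0929, 0.135, 0.151, 0.0946 and 0.0752). It was also lost with limma-voom (0.0632), with upper quartile scaling (0.0554) and without null 1 and null 3 together. The log2 fold change stayed between −0.26 and −0.18 throughout.

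Bcl2l1, which encodes BCL-XL, had 50.3, 49.8 and 51.4 CPM in null-labelled libraries, against 46.5, 50.1 and 48.5 CPM in controls. The groups overlapped, and the log2 fold change was 0.06 ± 0.045 (95% interval −0.04 to 0.16, adjusted p = 0.489). Bcl2l1 gives rise to a long protective and a short death-promoting protein by splicing, which gene counts do not separate. Mcl1, a short-lived protector, had the highest level of the 10 members, with 201, 189 and 190 CPM in null-labelled libraries and 192, 195 and 190 CPM in controls. Its groups overlapped, with means of 193 ± 6.32 and 193 ± 2.59 CPM (SD, n = 3 each), and the 95% interval of its fold change ran from 0.948 to 1.06 (adjusted p = 0.957).

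Among the BH3-only genes, Bcl2l11 encodes BIM, an activator that binds all antiapoptotic partners and is known in mouse for removing blood cells and other cells deprived of survival factors. It lies on chromosome 2 (128126038 to 128162547, plus strand, GRCm38). Bcl2l11 had 73.1, 72.7 and 71.3 CPM in null-labelled libraries, against 63, 58.7 and 61.4 CPM in controls. The groups did not overlap, with means of 72.4 ± 0.927 and 61 ± 2.18 CPM (SD, n = 3 each). The log2 fold change was 0.25 ± 0.042 (SE, 95% interval 0.15 to 0.34), with adjusted p = 0.0132 in edgeR's quasi-likelihood test. The call was lost without null 2 (adjusted p = 0.0578) and held without each other single library. Without null 1 and null 3 together, which leaves 1 null-labelled library, the call was lost and the log2 fold change was 0.25.

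Bid, which links death receptors to mitochondria once caspase-8 has cut its protein, was the member of lowest level. It had 3.41, 2.45 and 2.88 CPM in null-labelled libraries, from 137, 89 and 119 counts, against 3.48, 3.69 and 3.65 CPM in controls, from 153, 133 and 129 counts. All null-labelled values were lower, but the spread was wide and the gene did not pass (log2 fold change −0.31 ± 0.15, 95% interval −0.64 to 0.03, adjusted p = 0.289). Exons of Bcl2l13, itself a gene of the BCL2 family and far higher at 3701 to 5202 counts, cover 17.7% of the merged exons of Bid on the opposite strand, so the count of Bid is uncertain.

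Bad, a sensitiser that survival kinases keep inactive by phosphorylation, had 23.3, 22.7 and 23.3 CPM in null-labelled libraries and 23.4, 23.7 and 21 CPM in controls. The groups overlapped (log2 fold change 0.03 ± 0.062, 95% interval −0.11 to 0.16, adjusted p = 0.866), and 20.5% of its merged exons are shared with Gpr137 on the opposite strand. Bmf, a sensitiser whose protein is held at the cytoskeleton, had 21, 18.7 and 18.2 CPM in null-labelled libraries and 17.5, 18.8 and 19.3 CPM in controls. Its groups overlapped as well, with a log2 fold change of 0.06 ± 0.073 (95% interval −0.11 to 0.22, adjusted p = 0.722).

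Bnip3 encodes a receptor that marks mitochondria for autophagy and is induced by hypoxia. It had 81.3, 73.2 and 74.6 CPM in null-labelled libraries and 72.4, 59.7 and 76 CPM in controls. Control 2 was the lowest and the groups overlapped (log2 fold change 0.14 ± 0.090, 95% interval −0.07 to 0.35, adjusted p = 0.445). Exons of Gm45507, an opposite-strand gene not among those counted, cover 22.3% of the merged exons of Bnip3. Of the members, Bnip3 had most near copies: transcripts of 5 other genes matched it over 544 to 858 bases at 93.4% to 98.9% identity, and reads shared with them may have been dropped or divided, so its level is uncertain. Mcl1 had 1 such copy, over 245 bases at 91.8%, and the other 8 members had none at 90% identity over 100 bases or more outside overlapping genes.

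**Figure D2:**
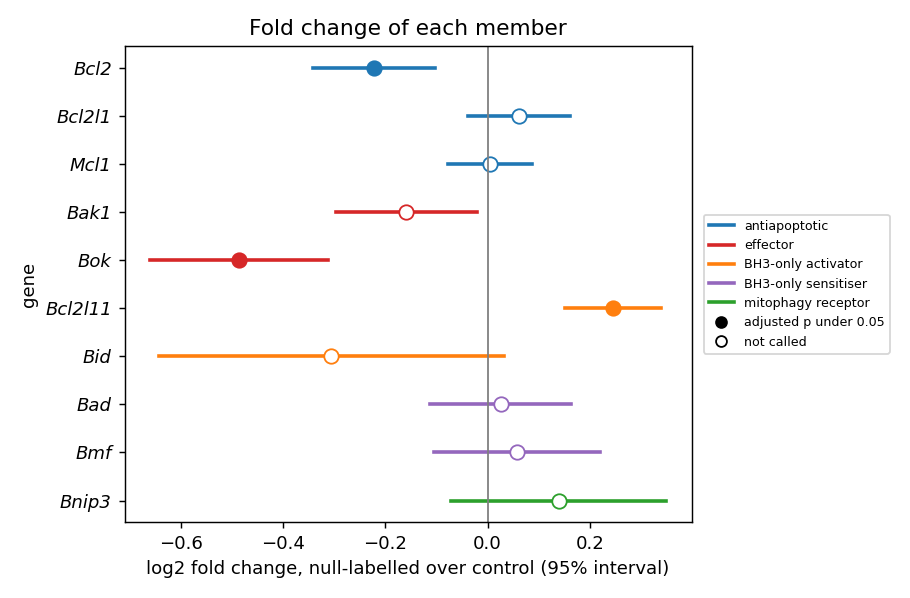
Log2 fold change of each member, null-labelled over control, with its 95% interval from edgeR (horizontal axis) and genes grouped by role (vertical axis, colours); filled points passed an adjusted p of 0.05. Bok at −0.49, Bcl2 at −0.22 and Bcl2l11 at 0.25 are filled; the interval of Bak1 also leaves out 0 before adjustment.

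Levels were set per kilobase of merged exons to compare genes. Merged exons may be longer than the transcripts expressed, and overlapping genes or near copies may shift a level. The spread between libraries does not measure this, so the order is approximate. Mcl1 stood highest, with means of 56.5 ± 1.85 in null-labelled libraries and 56.3 ± 0.758 CPM per kilobase in controls (SD, n = 3 each), followed in both groups by Bnip3 (33.7 and 30.6), Bak1 (13.1 and 14.6) and Bcl2l1 (11 and 10.6). Bok ranked 7th of the 10 in null-labelled libraries, at 6.39 to 7.07 CPM per kilobase, and 5th in controls, at 8.63 to 10 CPM per kilobase. In null-labelled libraries Bad (8.88 to 9.12) and Bcl2l11 (8.88 to 9.1) could not be ordered, nor could Bmf (3.47 to 3.99) and Bcl2 (3.5 to 3.7). In controls the neighbours that could not be ordered were Bok and Bad (8.22 to 9.26), while Bcl2 (3.99 to 4.48) stood above Bmf (3.34 to 3.68). Bid was lowest in both groups, at 0.69 to 0.96 in null-labelled libraries and 0.979 to 1.04 CPM per kilobase in controls.

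**Figure D3:**
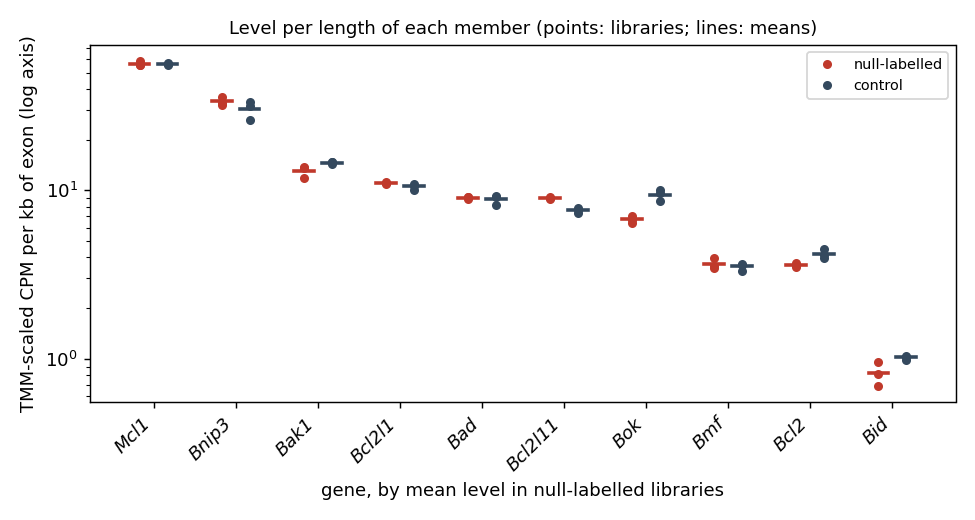
TMM-scaled CPM per kilobase of merged exons (log axis) for each member, ordered by the mean of null-labelled libraries; points are libraries, null-labelled left of control, and lines are means of 3. Mcl1 is highest near 56 and Bid lowest near 1, and the mean of Bok stands below those of Bad and Bcl2l11 in null-labelled libraries and above both in controls, where the libraries of Bok and Bad overlap.

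Ratios of 2 members within a library do not depend on how libraries are scaled. The ratio of Bcl2l11 to Bcl2, per kilobase of exon, was 2.46, 2.5 and 2.54 in null-labelled libraries, against 1.97, 1.76 and 1.71 in controls. The ratio of Bak1 to Bok was 2.13, 1.77 and 1.96 in null-labelled libraries, against 1.66, 1.54 and 1.47 in controls. The ratio of Bcl2 to Bcl2l1, both protectors, was 0.337, 0.333 and 0.312 in null-labelled libraries, against 0.393, 0.379 and 0.423 in controls. None of the 3 ratios overlapped between groups, but each holds a member called above. For Bcl2l11 to Bcl2 this follows from the groups not overlapping, in opposite directions, for either gene. The ratios are therefore no separate result and were given no test. The share of Mcl1 in the summed level per kilobase of the 10 members was 38.4 ± 0.435% in null-labelled libraries and 38.4 ± 1.21% in controls (SD, n = 3 each).

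The rest of the family, which includes direct p53 targets, held 17 listed genes, of which 12 were tested, 2 rose and 10 did not pass. Bax, the effector most used beside Bak1, had 44.6 ± 1.48 CPM in null-labelled libraries and 36.5 ± 2.14 CPM in controls (SD, n = 3 each; log2 fold change 0.29 ± 0.054, adjusted p = 0.0178). Pmaip1, which encodes the BH3-only protein NOXA, had 2.1 ± 0.327 and 0.957 ± 0.275 CPM (log2 fold change 1.14 ± 0.24, adjusted p = 0.0272), and Bbc3, which encodes PUMA, had 5.54 ± 0.154 and 4.61 ± 0.282 CPM and did not pass (adjusted p = 0.194). The 12 log2 fold changes had a median of 0.05. The number called was 0 without null 1, null 2 or null 3 and 1 without control 1 or control 2, and 0 without null 1 and null 3 together.

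Downstream of the family, none of 11 genes for cytochrome c, its caspase-activating complex and other released proteins passed in edgeR, DESeq2 or limma-voom (0 called), while 2 had an unadjusted p under 0.05, as did 20.5% of all genes tested; their median log2 fold change was 0.01. Of 10 genes for outer membrane channels and mitochondrial fusion and fission 0 were called by any of the 3 tools and 0 had an unadjusted p under 0.05. Of 14 genes whose proteins act on members, 2 rose and 1 fell. Among those not called was Foxo1, a FOXO gene like Foxo3 (log2 fold change 0.03 ± 0.0575, adjusted p = 0.847). Foxo3, a transcription factor known to activate Bcl2l11, had 111 ± 4.17 CPM in null-labelled libraries and 94.2 ± 3.2 CPM in controls (SD, n = 3 each; log2 fold change 0.23 ± 0.042, adjusted p = 0.0148), and lost its call without null 1 or null 3. Fbxw7, a ubiquitin ligase subunit that targets MCL1, had 37.2 ± 1.85 and 30.1 ± 0.988 CPM (log2 fold change 0.31 ± 0.052, adjusted p = 0.0131), a call that held without each single library. Ywhaz, a protein that holds phosphorylated BAD, had 104 ± 1.44 and 117 ± 4.42 CPM (log2 fold change −0.17 ± 0.038, adjusted p = 0.0326) and was not called when any library other than control 1 was left out. Of the 14, 1 was called without null 1 or without null 3, and 0 without both.

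Of 14 mitophagy and autophagy genes 1 rose, Pink1, a kinase that marks damaged mitochondria, with 157 ± 9.5 CPM in null-labelled libraries and 128 ± 6.03 CPM in controls (SD, n = 3 each; log2 fold change 0.29 ± 0.051, adjusted p = 0.0154); it lost its call without null 1 or null 3. Of 16 targets of hypoxia-inducible factor, the regulator of Bnip3, 0 were called in edgeR, DESeq2 or limma-voom, 2 had an unadjusted p under 0.05, and the median log2 fold change was −0.01. In edgeR 1 of the 16 was called without control 2 (Vegfa, lower).

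Markers of cell types also differed between the groups. Their part in the fold changes of Bok, Bcl2 and Bcl2l11 was not tested. In RNA from whole ventricle, fewer cells of a type and less RNA per cell cannot be told apart. Of 10 endothelial markers 6 fell and all 10 lay below 0, with a median log2 fold change of −0.23; their summed level was 1540 to 1680 CPM in null-labelled libraries and 1870 to 2090 CPM in controls. The called endothelial markers of smallest p were Egfl7, a secreted vessel factor (log2 fold change −0.37 ± 0.036), Fabp4, a lipid chaperone of capillaries (−0.75 ± 0.072), and Tie1, a receptor kinase (−0.23 ± 0.040). Bok and Bcl2 were lower as well, but a direction shared over 2 groups of libraries does not show that genes move together. Of 10 macrophage markers 5 rose, among them the complement genes C1qa, C1qb and C1qc (log2 fold changes 0.72, 0.57 and 0.53). The 10 summed to 117 to 146 CPM in null-labelled libraries and 91.4 to 106 CPM in controls. Likewise 3 of 8 fibroblast markers rose, Pdgfra, Tcf21 and Col1a1 (log2 fold changes 0.33, 0.22 and 0.29), with a summed level of 8630 to 9610 CPM in null-labelled libraries and 6950 to 8220 CPM in controls. No marker in these lists was at 0 in all libraries. The number of endothelial markers called was 2 without null 2 or null 3; that of macrophage markers was 0 without null 1, null 2 or control 2 and 1 without control 1; that of fibroblast markers was 0 without null 2, 1 without null 1, null 3 or control 2 and 5 without control 3. Without null 1 and null 3 together 1, 0 and 0 were called. With all libraries DESeq2 called 8 endothelial, 7 macrophage and 5 fibroblast markers, and limma-voom called 5, 2 and 3.

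Of 10 red cell markers, 8 were tested and 0 called in edgeR, while 2 had an unadjusted p under 0.05; DESeq2 called 1 and limma-voom 0. All 8 lay below 0, with a median log2 fold change of −0.88, and Slc4a1, the anion exchanger of red cells, was called lower in edgeR without control 1, without control 3 and with a term for sex. The summed level of the 10 was 1210 to 1970 CPM in null-labelled libraries and 1750 to 5080 CPM in controls, and red cell precursors depend on Bcl2l1. Haemoglobin genes, near copies whose shared reads make this share uncertain, took 0.157 ± 0.0384% of counts in null-labelled libraries and 0.309 ± 0.162% in controls (SD, n = 3 each; exact two-sided permutation p = 0.3, the smallest possible being 0.1). With haemoglobin genes removed, the log2 fold changes of Bok, Bcl2 and Bcl2l11 were −0.49, −0.22 and 0.25, and each was called. Removing so small a share of counts could hardly move these values, and any red cell transcripts of the members stay in the counts. The part of red cell content in the members' values was not tested. Of 6 neutrophil markers, 4 were tested and 0 called in edgeR, DESeq2 or limma-voom, with 0 at an unadjusted p under 0.05. They summed to at most 11.2 CPM in null-labelled libraries and 11.6 CPM in controls. Of 5 liver markers 2 were tested, neither of which was called (median log2 fold change −0.95), and the 5 summed to 1.02 to 4.36 CPM in null-labelled libraries and 0.0909 to 13.8 CPM in controls. The highest value came from control 3: Alb, the albumin gene, had 57, 20 and 125 counts in null-labelled libraries and 3, 12 and 322 in controls. Without control 3, Afp was called higher and the median was 3.06.

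**Figure D4:**
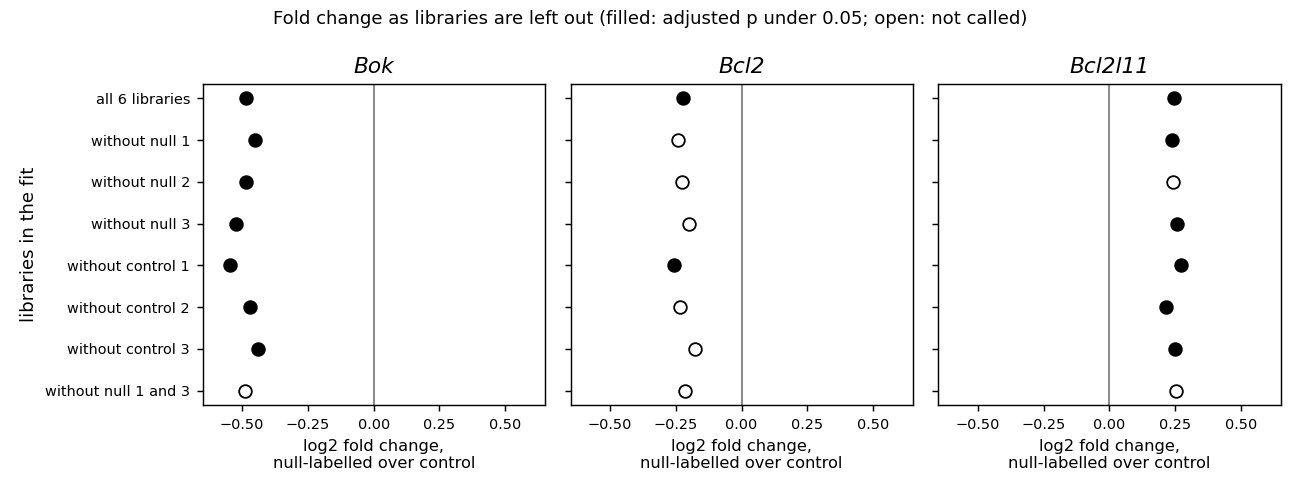
Log2 fold change, null-labelled over control (horizontal axis), of Bok, Bcl2 and Bcl2l11 with all 6 libraries and with the libraries named on the vertical axis left out; filled points had an adjusted p under 0.05 in edgeR and open points did not. Directions stay the same in every fit shown. No gene is called without null 1 and null 3 together, a fit that leaves 1 null-labelled library.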

How the data were processed

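The files deposited by the authors give raw whole-number counts of 25006 genes, 1 library in each. The submitters' processing notes name cutadapt 1.13, STAR, HTSeq 0.6.1p1, DESeq2 and build mm10; what each tool did, the annotation release and the strand setting are not known here. GENCODE M21 (GRCm38) matched 24991 identifiers, and the other 15 took up to 0.00212% of counts. Mitochondrial genes stood at 0 and unassigned reads had no line, so RNA quality could not be read from them. At these depths 3 counts equal 0.0677 to 0.0852 CPM, which covers counting error only.

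R 4.3.3 and edgeR 4.0.16 were used for the test: filterByExpr by group, TMM, a robust quasi-likelihood F test with group as the only term, and p-values adjusted by Benjamini and Hochberg over the 14815 genes tested. Every adjusted p is from this test unless another is named; intervals are for single genes, unadjusted, and standard errors were derived from the F statistic. On simulated counts of 14815 genes it recovered 22%, 80%, 90% and 98% of genes changed 1.2-, 1.5-, 2- and 3-fold (50 genes each, of at least 1 CPM), with 10 false calls, and made 6 calls with no gene changed. Alternatives were other scalings and filters, DESeq2 1.42.0, voom of limma 3.58.1, libraries left out, replicate and sex terms, counts without haemoglobin genes, and 0.1 as the threshold.

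The members, gene lists and motifs were chosen with earlier results of these data known. Named genes are the 10 members, Prox1, Bax, Bbc3, Pmaip1, genes overlapping a member, and at most 3 called genes of smallest p per list. Foxo1, Vegfa, Slc4a1, Ryr2, Pln, Alb, Afp and the genes of the closing section were named after their values were seen.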

Additional observations from a re-analysis of the deposited data

How the results depend on the processing

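Of 170 results for a single member under 17 alternatives, 153 kept both direction and side of the threshold, 12 lost their call and 5 changed sign. The changes of sign were in uncalled genes near 0: without 1 library the log2 fold change ran from −0.0221 (null 1 left out) to 0.0191 for Mcl1, from −0.0059 (null 1 left out) to 0.0977 for Bmf and from −0.0269 (control 3 left out) to 0.0542 for Bad, and Mcl1 was at −0.0034 without control 3 and at −0.0227 without null 1 and null 3 together. The calls lost were 9 of Bcl2, 2 of Bcl2l11 and 1 of Bok. The number of lower members was 1 in place of 2 with upper quartile scaling, with limma-voom and with the replicate block, and leaving out 1 library gave 1 to 3 members called, 0 or 1 higher and 1 or 2 lower. Without null 1 and null 3 together 0 members were called, 0 higher and 0 lower, and 52 genes over all, where a single library carried the null-labelled group, its spread taken from the controls. Leaving out 1 library gave 258 to 942 genes called over all, against 801, and a threshold of 0.1 gave 1430. Scaling moved the median of all genes by less than 0.01 on the log2 scale. Libraries of the same number did not deviate together (correlations of −0.0385, −0.117 and −0.174 for numbers 1 to 3). So few libraries cannot exclude a pairing, and the labels state none. Under the replicate block 2 members and 570 genes were called. In that fit Bcl2 had adjusted p = 0.0905, and Prox1 and Actc1 were not called. Depth limits Bid most, with at most 153 counts in a library.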

Other observations

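The lower members Bok and Bcl2 lie on the same chromosome, 12.8 megabases apart. Of 28 tested genes within 2 megabases of Bok, edgeR called 0 and 7 (25%) had a p below 0.05 before adjustment, against 20.5% of all genes tested, and DESeq2 and limma-voom called 1 each. Of 11 tested genes within 2 megabases of Bcl2, 1 was called in edgeR, the ubiquitin ligase gene Rnf152, which was lower. Before adjustment 3 of the 11 (27.3%) had a p below 0.05. Of 44 tested genes within 2 megabases of Bcl2l11, 1 was called, the histamine-producing enzyme gene Hdc, which was higher. Before adjustment 7 of the 44 (15.9%) had a p below 0.05. Over all genes tested 5.41% were called in edgeR.

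Other genes of the family were too low to test. Bcl2l10 and Bcl2l14 had at most 2 counts in any library. The Bcl2a1 genes, known protectors of blood cells, are near copies of each other, and their counts are uncertain. Bcl2a1b had 12, 12 and 5 counts in null-labelled libraries, against 4, 2 and 5 in controls, and Bcl2a1a had 0 in each null-labelled library, against 1, 2 and 1 in controls.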
